A study of Mus musculus with 28 samples.

Results

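The glypicans are a family of heparan sulfate proteoglycans, and all 6 mouse members, Gpc1 to Gpc6, were taken by name. Each was listed in both deposited tables, which held 23453 genes counted over exons and 20422 genes counted over introns. The RNA of 28 single mouse brain cells was sequenced. The labels name 8 astrocytes and 12 neurons, both from primary cultures of C57/BL6 cortex and collected by pipette, and 8 interneurons of C57/BL6/N mice, collected by patch clamp pipette from acute slices that included prefrontal cortex. No treatment or deletion is named in any of the 3 groups. The study's methods describe neuron and astrocyte cultures from embryos of both sexes. The protocol text of the labels instead names a 3-month-old male mouse, perfused with fixative, under the cultured cells, and may belong to another assay of the study. No age is given for the slice mice. Cultured cells and slice cells also differed in library kit and sequencer, and no label says which cells shared an animal or a culture.

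The columns of the tables carry codes, 20 beginning with BRP and 8 with F, and none of the 28 could be matched to a labelled sample. Cells are therefore described by blocks of codes: the 8 columns BRP564 and BRP566 to BRP572, the other 12 BRP columns, and the 8 F columns. These sizes equal the labelled numbers of astrocytes, neurons and interneurons, but no label ties a block to a cell type, so no block is treated as a group and no test between blocks is given. Every value below is a description of cells.

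A glypican is a protein core held at the outer cell surface by a glycosylphosphatidylinositol anchor. Heparan sulfate chains are attached close to the membrane, at serines followed by glycine, and bind growth factors, morphogens and synaptic receptors. In the brain, Gpc4 and Gpc6 are known as factors released by astrocytes that recruit AMPA-type glutamate receptors to synapses. Gpc1 and Gpc2 are known from neurons and growing axons, Gpc3 from hedgehog signalling in growing tissue, and Gpc5 from astrocytes of the adult brain.

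The coding stretch with the most serine-glycine pairs among the last 150 codons is shown for each gene. The sequences are 48 bases of the GENCODE M21 transcript with the longest coding sequence, on GRCm38, read 5′ to 3′ on the gene's strand. Capitals mark codons of a serine followed by a glycine.
Gpc1: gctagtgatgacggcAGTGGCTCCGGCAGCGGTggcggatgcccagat
Gpc2: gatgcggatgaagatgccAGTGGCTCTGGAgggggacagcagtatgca
Gpc4: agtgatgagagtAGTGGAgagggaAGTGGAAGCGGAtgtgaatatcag
Gpc6: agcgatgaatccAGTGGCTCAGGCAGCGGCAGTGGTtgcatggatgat
Gpc3: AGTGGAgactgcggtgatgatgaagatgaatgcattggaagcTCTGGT
Gpc5: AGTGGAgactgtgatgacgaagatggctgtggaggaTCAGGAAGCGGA

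The stretch held 4 serine-glycine pairs in Gpc6, 3 in Gpc1, Gpc4 and Gpc5, and 2 in Gpc2 and Gpc3. In Gpc1, Gpc2, Gpc4 and Gpc6 the pairs stood close together and the stretch ran over the junction of the last 2 coding exons. It spans chr1:92858027-92858375 (+, exons 8 and 9) in Gpc1, chr5:138274529-138275461 (−, exons 9 and 10) in Gpc2, chrX:52053680-52053817 (−, exons 8 and 9) in Gpc4 and chr14:117964874-117974930 (+, exons 9 and 10) in Gpc6. In Gpc3 and Gpc5 the pairs stood at both ends of a run rich in acidic codons, all within exon 7, at chrX:52314880-52314927 (−) and chr14:115788254-115788301 (+).

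The genes differ far more in their introns than in their exons. Gpc1 (chr1:92831645-92860779, +) has 23976 bases of intron and Gpc2 (chr5:138273655-138280005, −) 2077 bases. Gpc4 (chrX:52053021-52165252, −) and Gpc3 (chrX:52272426-52613950, −) are neighbours on the same strand with 107 kb and no gene between them, and have 110 kb and 339 kb of intron. Gpc5 (chr14:115092215-116525179, +) and Gpc6 (chr14:116925315-117976544, +) are a second pair of neighbours, 400 kb apart with no protein-coding gene between them, and have 1429 kb and 1045 kb of intron. Merged exons cover 2.65 kb (Gpc4) to 6.43 kb (Gpc6).

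Levels are given as exonic counts scaled to a total of 1000000 exonic counts in the cell (exonic CPM), and intronic counts scaled to 1000000 intronic counts (intronic CPM). Exonic totals were 12969692 to 26770944 counts per cell in the BRP columns and 838343 to 14831505 in the F columns, so 3 counts stood for 0.112 to 0.231 CPM in the former and 0.202 to 3.58 CPM in the latter. A level of 0 allows up to this floor in that cell. These floors cover counting error only, since amplified reads are not independent molecules. Intronic counts were 5.67% to 38.8% of all counts in the BRP columns and 5.31% to 63.0% in the F columns. Fewer RNA molecules in a cell and poorer recovery of its RNA cannot be told apart here.

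The marker lists read as follows in the blocks. The 9 astrocyte markers summed to 2674 to 7155 exonic CPM in BRP564 and BRP566 to BRP572, 208 to 2463 in the other BRP columns and 1.19 to 4363 in the F columns. In the last, Aldh1l1 and S100b were at 0 in all 8 cells. The 7 neuron markers summed to 299 to 801, 4898 to 9982 and 1608 to 17800 CPM, and the 9 interneuron markers to 9.82 to 190, 0.538 to 3447 and 565 to 11886 CPM. Column F7 held the highest astrocyte sum of the F columns, 4363 CPM, nearly all of it Slc1a2 (4350 CPM), and an oligodendrocyte sum of 3387 CPM against at most 1.16 in the other 7. Of that sum 3210 CPM was Olig1, which was also at 432 to 1048 CPM in BRP564 and BRP566 to BRP572, while Mbp was at 156, Mog at 0.115 and Mag at 0 CPM. Values of the F columns are therefore also given without F7. Column F16 had the lowest exonic total and a microglia sum of 2093 CPM, which came from Csf1r, while C1qa was at 0.

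Gpc4 was the glypican with the highest exonic level per length. Its mean over the 28 cells was 68.1 CPM per kb of exon, followed by Gpc1 at 6.47, Gpc6 at 5.77, Gpc2 at 0.535, Gpc3 at 0.457 and Gpc5 at 0.198. Gpc1 stood above Gpc6 through F7, since without that cell they were at 4.89 and 5.98. Gpc4 stood above all other members per kb in 18 of the 20 BRP cells, with Gpc1 ahead in BRP535 and Gpc5 in BRP543. Cells of the BRP columns did not separate every pair of neighbours in this order. Gpc4 exceeded Gpc1 per kb in 19 of the 20, and Gpc6 exceeded Gpc2 in 18. By contrast, Gpc1 exceeded Gpc6 in 11 and fell below it in 9, and Gpc2 and Gpc3 each exceeded the other in 5. The order of Gpc1 and Gpc6 went with the blocks. Gpc6 was higher in all 8 columns BRP564 and BRP566 to BRP572, and Gpc1 in 11 of the other 12. Among 18221 genes with a length and an exonic count, Gpc4 stood at percentile 95.9, Gpc1 at 71.6, Gpc6 at 70.0 and the other 3 between 31.4 and 39.3.

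**Figure D1:**
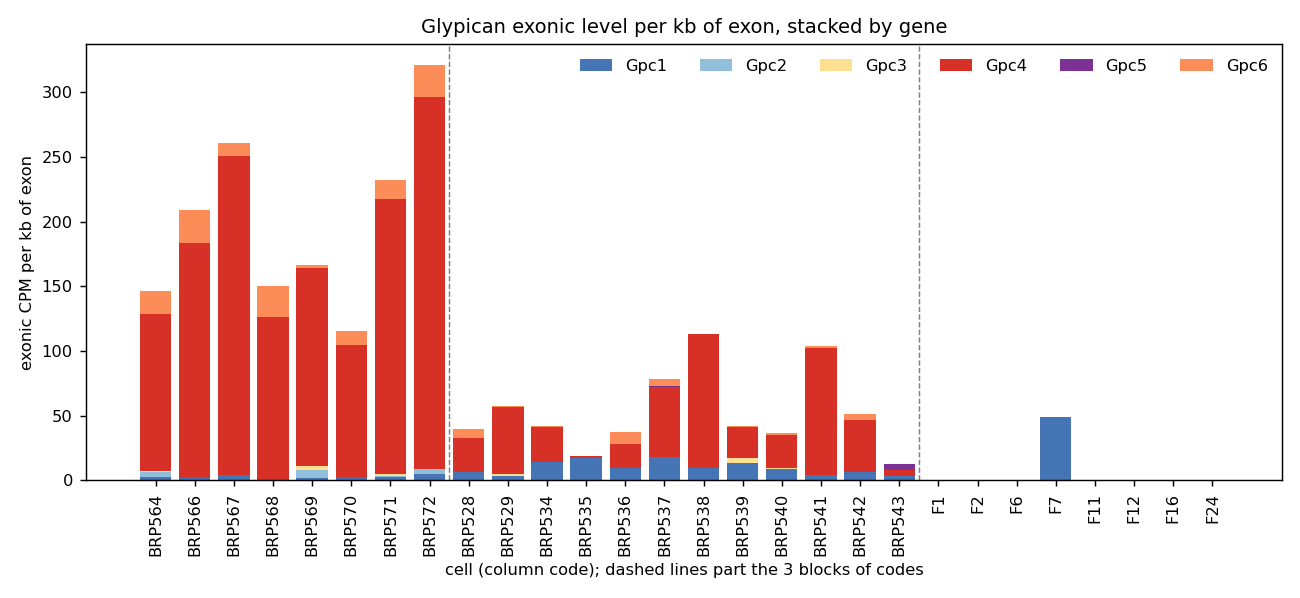
Exonic CPM per kb of exon of the 6 glypicans, stacked, with 1 bar for each of the 28 cells named by its column code and dashed lines between the 3 blocks of codes. Gpc4 is the tallest part of the bar in 18 of the 20 BRP cells, and F7 is the only F column with a visible bar, which is Gpc1.

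Of the factors known from astrocytes, Gpc4 is taken first. In BRP564 and BRP566 to BRP572 its exonic level ran from 273 to 762 CPM with a median of 444. In the other 12 BRP columns it ran from 3.57 to 274 CPM with a median of 70.9, and in all 8 F columns it was 0. The BRP blocks nearly separated, with 7 of the first 8 cells above every one of the 12, and BRP538 (274 CPM) of the second block just above BRP570 (273 CPM) of the first. The ratio of the 2 medians was 6.27.

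Intronic counts of Gpc4 followed a similar order but with a wider spread. They ran from 58.8 to 5171 intronic CPM (median 1015) in BRP564 and BRP566 to BRP572, from 1.35 to 942 (median 119) in the other BRP columns, and from 0 to 298 (median 2.24) in the F columns. The 298 CPM was F7, where 3136 intronic counts stood beside 0 exonic counts. Without F7, the highest F column had 7.92 intronic CPM, from 20 counts in F12. BRP567 alone held 26.9% of all intronic counts of the gene.

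Gpc6, the other member known from astrocytes, had a similar order of blocks. Its exonic level was 14.9 to 164 CPM (median 107) in BRP564 and BRP566 to BRP572, 0 to 59.9 CPM (median 5.92) in the other BRP columns, and 0 to 0.473 CPM in the F columns, where 2 cells had 1 count each. The ranges of the BRP blocks overlapped through BRP569 (14.9 CPM), the lowest of the first block, and the 4 cells of the second block above it. The ratio of medians was 18.0. Intronic CPM of Gpc6 had medians of 2368, 800 and 57.1 in the 3 blocks, and the ranges overlapped between every pair of blocks.

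Gpc1, known from neurons and axons, ran the other way in the BRP columns. Its exonic level was 1.94 to 22.9 CPM (median 10.6) in BRP564 and BRP566 to BRP572 and 16.6 to 93.2 CPM (median 46.7) in the other BRP columns. Of the latter, 9 of 12 cells stood above all 8 of the former, and the ratio of the medians was 4.39. In the F columns Gpc1 was at 0 in 6 cells, at 0.361 CPM (2 counts) in F2 and at 253 CPM (2201 counts) in F7, the highest level of the gene in any cell. These directions between the BRP blocks for Gpc1, Gpc4 and Gpc6 held with edgeR's effective library sizes, with DESeq2 size factors and with exonic plus intronic totals.

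Gpc2, the member known from developing neurons and their progenitors, was sparse. It had exonic counts in 9 cells, and 4 of them held nearly all: BRP569 at 24.9 CPM, BRP572 at 18.5, BRP564 at 14.8 and BRP571 at 4.08. The other 4 cells of this block were at 0, 3 of the other 12 BRP cells had counts, at 0.896 CPM or less, and 2 F cells had 1 count each. A further gene of the annotation, Gm43720, shares 2376 bases of exon with Gpc2 on the same strand and is not listed in the tables, so reads of the 2 could not be told apart.

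Gpc3, a regulator of hedgehog signalling, had exonic counts in 8 cells, all of them BRP. In the first block these were BRP569 at 8.94 CPM, BRP571 at 5.25, BRP564 at 1.61 and BRP572 at 0.326. In the second block they were BRP539 at 11.2 CPM, BRP529 at 5.10, BRP540 at 1.94 and BRP536 at 0.0450, which was 1 count. The 4 cells of the first block with Gpc3 are the same 4 that had Gpc2, while in the second block only 1 cell had both. Although Gpc3 lies next to Gpc4, the 2 did not share a pattern: Gpc4 had exonic counts in all 20 BRP cells and Gpc3 in 8 of them.

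Gpc5 had the fewest exonic counts, 501 in 6 cells. BRP543 held 397 of them (20.3 CPM), which is 79.2%, followed by 50 in BRP537, 42 in BRP542, 10 in BRP529 and 1 each in BRP535 and BRP570. It was at 0 in 7 of the 8 columns BRP564 and BRP566 to BRP572, whose astrocyte marker sums were the highest among the BRP columns, and at 0 in all F columns. Without BRP543 its mean level fell from 0.198 to 0.0371 CPM per kb.

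**Figure D2:**
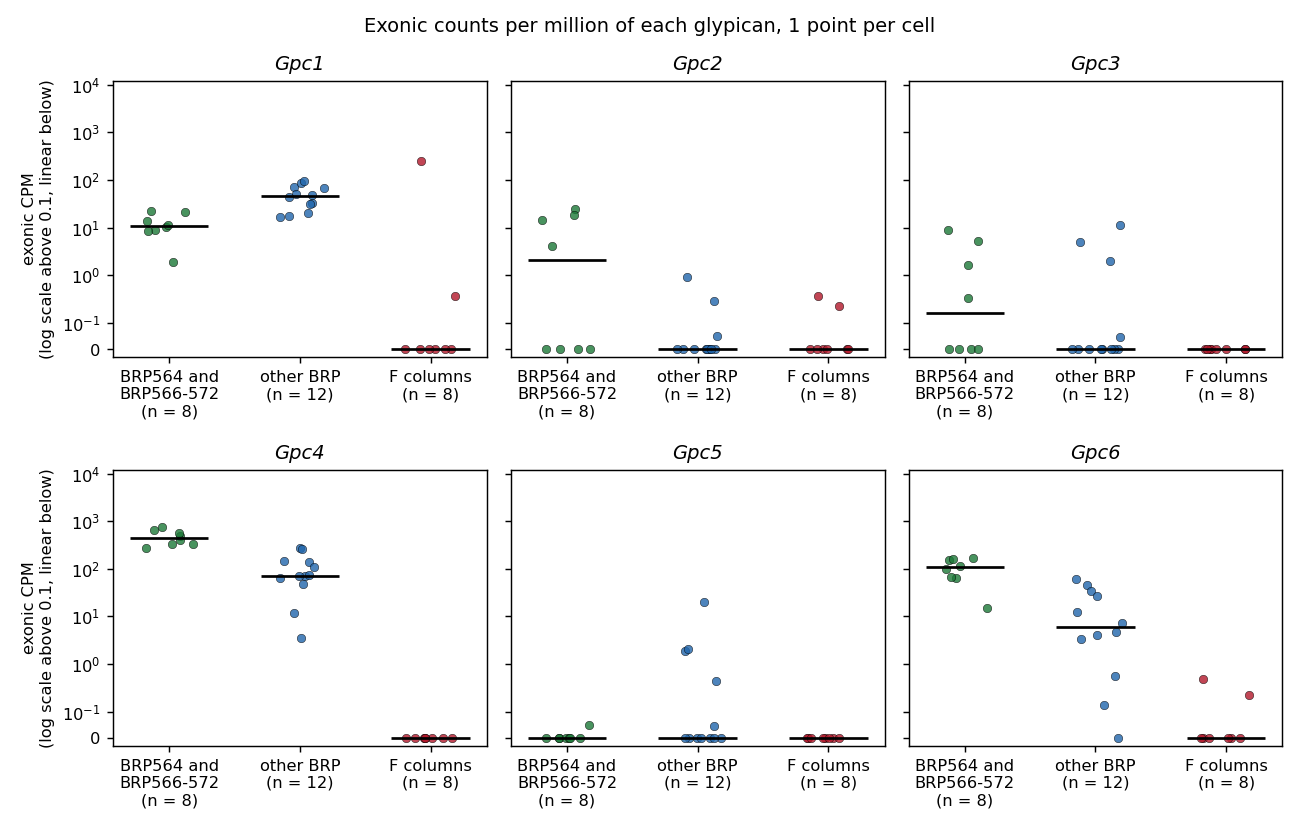
Exonic CPM of each glypican, 1 point per cell by block of column codes, on an axis that is logarithmic above 0.1 and linear below, with bars at the block medians. Gpc4 and Gpc6 lie higher in BRP564 and BRP566 to BRP572 than in the other BRP columns, Gpc1 lies lower there, and in the F columns only Gpc1 in F7 exceeds 0.5 CPM.

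Introns gave another order. Gpc5 had intronic counts in all 28 cells, as did Gpc3 and Gpc6, while Gpc4 had them in 26, Gpc1 in 6 and Gpc2 in 2. Summed over cells, Gpc5 had 30545 intronic beside 501 exonic counts, an intronic share of 98.4%. Among 16344 genes with at least 100 counts in all, the median share was 13.7%, and among the 2132 of them with introns of 100 kb or more it was 58.6%. Gpc5 stood at percentile 89.3 of the latter.

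For the other members with long introns the share was 85.3% in Gpc6 (108957 of 127716 counts), 77.1% in Gpc3 (2270 of 2943) and 33.7% in Gpc4 (46371 of 137772). It was 0.198% in Gpc2 (2 of 1011 counts) and 0.0417% in Gpc1 (7 of 16774). The introns of Gpc1 cover 23976 bases. Among 701 genes with at least 10000 exonic counts and 20 to 30 kb of intron, 7.85% had 10 or fewer intronic counts and the median was 1366. How the authors' introns were defined is not given in the sources used here, and 2 antisense genes and a miRNA gene overlap Gpc1 outside its exons. A further gene on the other strand, Ankmy1, shares 977 bases of exon with Gpc1 and had 2 exonic counts in all. Another opposite-strand gene, Gm20713, shares 107 bases of exon with Gpc5. The antisense gene A630012P03Rik overlaps Gpc3 outside its exons and had 780 intronic counts. The strand setting is not given, so its part in the intronic counts and cells of Gpc3 was not tested.

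Intronic CPM of Gpc5 ran from 34.0 to 610 (median 198) in BRP564 and BRP566 to BRP572, from 12.9 to 1669 (median 438) in the other BRP columns and from 7.72 to 746 (median 20.3) in the F columns. The highest BRP cell, BRP543, was also the one with most exonic counts. Other cells did not follow this: the next highest, BRP538 (1152 CPM) and BRP528 (1056 CPM), had 0 exonic counts. BRP542, with 42 exonic counts, had the lowest intronic level of the BRP cells, 12.9 CPM. The highest F cell, at 746 CPM from 1059 counts, was F16, and the next was F7 at 117 CPM. In 22 of the 28 cells Gpc5 was counted over introns and not over exons at all. For Gpc6 this held in 7 cells, 6 of them F columns, for Gpc3 in 20 cells, and for Gpc4 in 6 cells, all of them F columns.

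**Figure D3:**
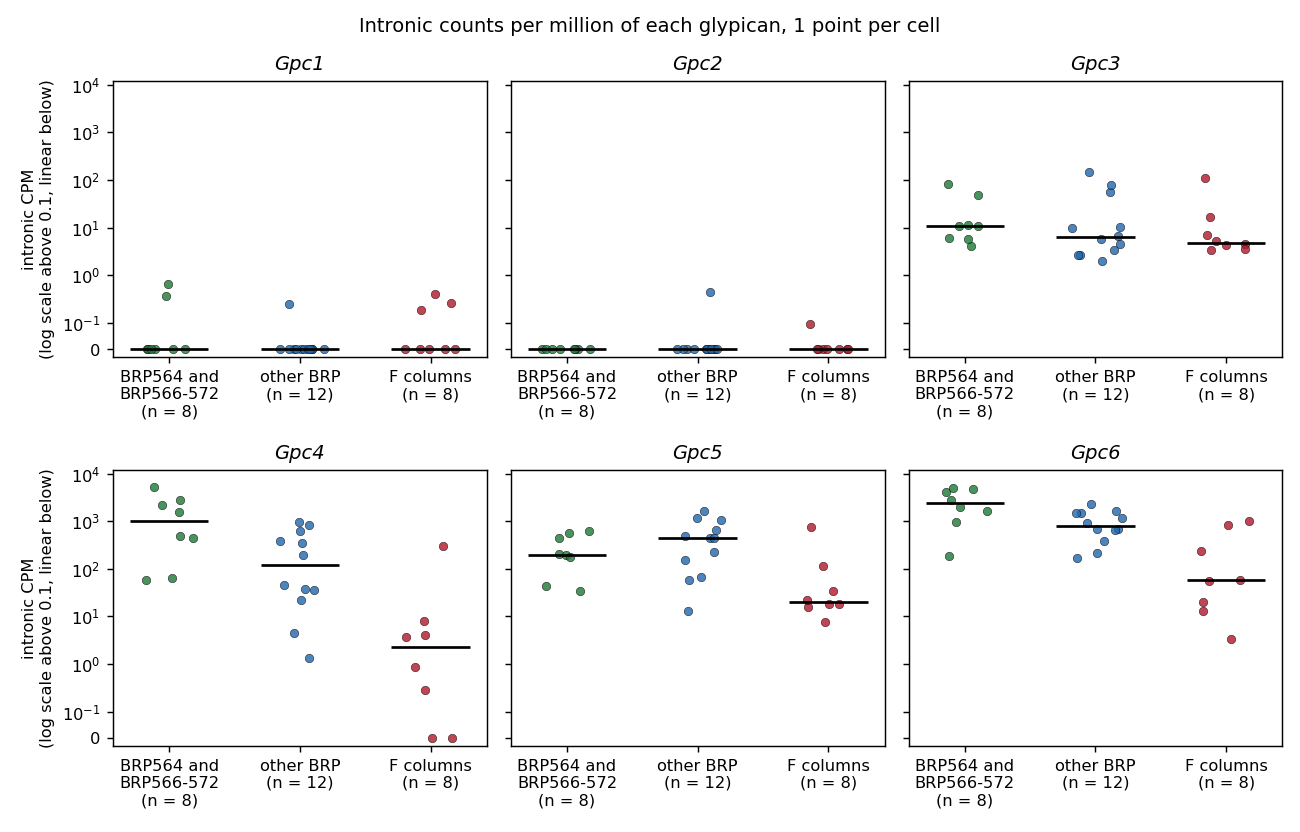
Intronic CPM of each glypican, 1 point per cell by block of column codes, on an axis that is logarithmic above 0.1 and linear below, with bars at the block medians. Gpc3, Gpc5 and Gpc6 lie above 0 in every cell, and Gpc1 and Gpc2 lie at or below 0.645 CPM throughout.

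A long intron collects more counts at the same density, so counts were also divided by length. Over all cells, Gpc5 had 113 exonic counts per kb of exon and 21.4 intronic counts per kb of intron, a ratio of 5.26. The ratio was 27.997 in Gpc6, 37.3 in Gpc3 and 81.5 in Gpc4. The median was 15.5 among 2017 genes with introns of 100 kb or more, at least 100 counts and an intronic count. Long genes without an intronic count have no ratio and were left out, which lowers this median and raises the percentiles. Gpc5 stood at percentile 29.5 of the 2017 genes and Gpc6, Gpc3 and Gpc4 at 64.4, 70.8 and 85.2. Without BRP543 the ratio of Gpc5 was 1.40, on 104 exonic counts. This value pools unlike cells and does not show equal density of exons and introns in single cells. BRP542 had 42 exonic beside 126 intronic counts and BRP537 had 50 beside 3190, while 22 of the 28 cells had no exonic count.

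Within blocks the ratios parted further. In BRP564 and BRP566 to BRP572, Gpc5 had 1 exonic count beside 4040 intronic counts, where counts spread evenly over the length of the gene would put 12.6 in exons. Gpc6 had 14439 exonic and 36586 intronic counts in the same cells, a ratio of 64.2, so the 2 neighbours on chromosome 14 differed in their exonic counts there far more than in their intronic counts. In the other BRP columns the ratios were 6.73 for Gpc5 and 10.8 for Gpc6. BRP543 held 397 of the 500 exonic Gpc5 counts of these columns, and the ratio of Gpc5 was 1.92 without it. In the F columns the 4 genes with long introns together had 2 exonic counts, both of Gpc6, where even spread would put 44.8 for Gpc6 alone, 75.2 for Gpc4 and 8.25 for Gpc5. Of these, Gpc4 rested on F7, since without it even spread would put 1.09. Without F7 it would put 4.44 for Gpc5 and 41.0 for Gpc6. F7 and F16 held 1226 and 1059 of the 2656 intronic Gpc5 counts of the F columns. For Gpc6, F11 and F12 held 3815 and 2080 of 7323.

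**Figure D4:**
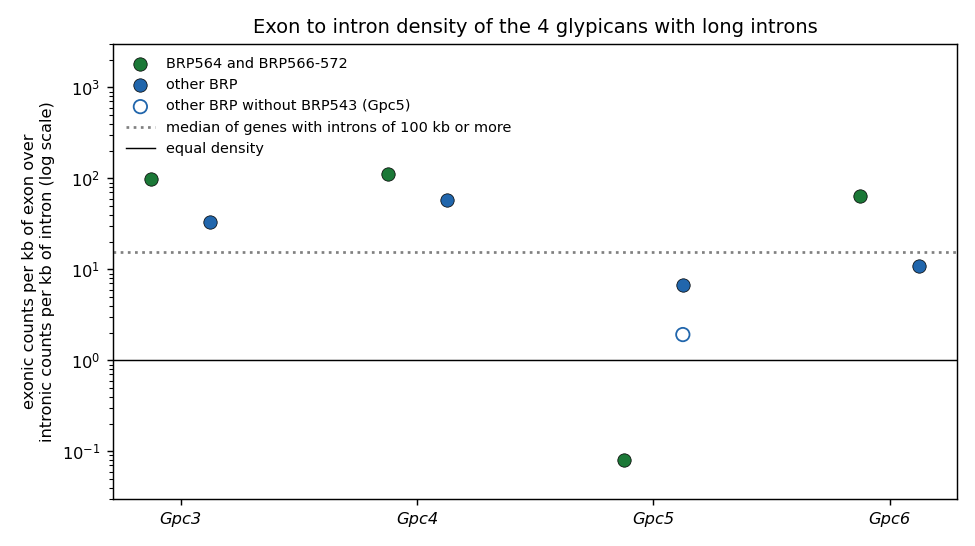
Exonic counts per kb of exon divided by intronic counts per kb of intron, on a log axis, for the 4 glypicans with introns of 100 kb or more, summed over the 8 columns BRP564 and BRP566 to BRP572 and over the other 12 BRP columns, with lines at equal density and at the median of 2017 long genes. Gpc5 in the first block, at 0.0794 from 1 exonic count, is the only point below equal density. The open point is Gpc5 in the other BRP columns without BRP543, at 1.92.

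Per kb of intron the order of mean intronic levels was Gpc4 at 5.35 CPM, Gpc6 at 1.20, Gpc5 at 0.242, Gpc3 at 0.0697, Gpc2 at 0.00940 and Gpc1 at 0.00315. Gpc4 led in 13 and Gpc6 in 6 of the 20 BRP cells, and BRP543 was led by Gpc5. Among the 8 F columns, Gpc6 led in 4, Gpc3 in 2, and Gpc4 and Gpc5 in 1 each.

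As a family, glypicans summed to 349 to 965 exonic CPM (median 573) in BRP564 and BRP566 to BRP572, 50.0 to 323 (median 154) in the other BRP columns, and 0 to 253 (median 0.365) in the F columns. Without F7 the highest F cell was at 0.473 CPM. This sum is not scaled to length. In BRP564 and BRP566 to BRP572 the sum mostly followed Gpc4, with a median of 444 CPM beside 10.6 for Gpc1. In the other BRP columns the medians were 70.9 for Gpc4 and 46.7 for Gpc1. There Gpc1 exceeded Gpc4 in BRP535 (87.5 against 3.57 CPM), BRP536 (50.0 against 48.6), BRP539 (68.2 against 62.7) and BRP543 (17.6 against 11.5). Gpc4 was the higher of the 2 in the remaining cells of that block. A BRP cell had exonic counts of 3 to 5 glypicans, and an F cell of 0 to 2. For scale, 51.8% of all genes had an exonic count in at least 4 of the 8 columns of the first block, 47.7% in at least 6 of the 12 of the second and 19.1% in at least 4 of the 8 F columns. The list counts in the paragraphs below are to be read beside these shares.

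Heparan sulfate proteoglycans outside the family were present in the same cells. All 10 listed genes had a count in at least 4 of the 8 columns BRP564 and BRP566 to BRP572, 7 did so in at least 6 of the other 12, and 3 in at least 4 F columns (2 of 10 in the F columns without F7). Sdc2, a transmembrane syndecan, had medians of 238, 83.7 and 0 exonic CPM in the 3 blocks. Agrn, the organiser of the neuromuscular synapse, had medians of 124, 231 and 70.0 CPM, the last falling to 4.80 without F7. Nrp1, a receptor for semaphorins that can carry a chain, had 111, 148 and 0.114 CPM.

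The enzymes that build the chain were counted in both BRP blocks. Of the 10 assembly genes, 7 reached 4 cells in the first block, 8 reached 6 cells in the second and 3 reached 4 cells in the F columns. Ext1, a polymerase of the chain, had medians of 98.5, 74.2 and 2.26 CPM in the same order of blocks. Extl3, which starts the chain, had 65.2, 66.9 and 1.79 CPM, and Extl2 77.4, 115 and 0 CPM. The ranges of all 3 genes overlapped between the BRP blocks.

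Enzymes that modify the chain had overlapping ranges in the BRP blocks for all 3 genes named. Hs6st2, a 6-O-sulfotransferase, ran from 0 to 31.1 exonic CPM (median 0.435) in BRP564 and BRP566 to BRP572, from 0 to 2064 (median 722) in the other BRP columns and from 0 to 0.542 in the F columns. Hs2st1, a 2-O-sulfotransferase, had medians of 69.2, 130 and 0 CPM, with ranges of 33.3 to 144 and 78.7 to 252 in the BRP blocks. Glce, the epimerase of glucuronic acid, had medians of 1.28, 16.7 and 0 CPM, with highest values of 20.3 and 107 CPM in the BRP blocks, but reached 42203 CPM in 1 F column. Its median over all cells was 1.94 CPM, so the high mean by which it was named came mostly from that column. In all, 9, 8 and 2 of the 15 listed genes had counts in at least 4, 6 and 4 cells of the 3 blocks, beside 51.8%, 47.7% and 19.1% of all genes.

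Sulf2, a secreted sulfatase that trims the 6-O-sulfates, ran from 60.3 to 193 CPM in the first block. It reached 36.7 CPM in the second and 5.96 CPM in the F columns. Sulf1, its relative, had medians of 2.89, 0.409 and 0 CPM. Pcsk6, a proprotein convertase of the furin family, had medians of 51.2, 0.0225 and 0.0337 CPM. Of the 8 genes of trimming and release, 5, 6 and 2 reached those numbers of cells. Notum, a secreted hydrolase linked to glypicans and Wnt, was at 0 in the second block and in the F columns.

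Partners at the synapse were counted in all 3 blocks. Ptprs, a receptor phosphatase that binds heparan sulfate, had medians of 64.3, 437 and 24.03 exonic CPM, and its relative Ptprf 460, 149 and 4.61 CPM. Gria1, an AMPA receptor subunit, had medians of 9.82, 524 and 965 CPM. In the F columns all 8 cells had Gria1 counts, and Gpc4 exonic counts were at 0 in the same cells. Of the 7 listed partners, 4, 7 and 5 reached those numbers of cells.

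Genes with the most similar profile were sought for the 3 members with exonic counts in at least 14 cells, among 10644 such genes. For Gpc4, these were Krcc1, Myh9 and Tom1l1, with Spearman's rho of 0.94, 0.93 and 0.93 over 28 cells and of 0.83 for all 3 within the 20 BRP cells. For Gpc6, they were Rnaseh1, Ahnak and Szrd1 at 0.91 each, and at 0.86, 0.82 and 0.81 within the BRP cells. For Gpc1, they were Pim2, Ogfrl1 and Ndrg3 at 0.91, 0.90 and 0.87, and at 0.80, 0.89 and 0.72 within the BRP cells. Within single blocks the values were lower than over the 28 cells. In the 8 columns of the first block rho was 0.48 to 0.57 for the 3 genes of Gpc4, 0.21 (Rnaseh1), 0.71 (Ahnak) and 0.33 (Szrd1) for Gpc6, and 0.36 (Pim2), 0.55 (Ogfrl1) and 0.48 (Ndrg3) for Gpc1. In the other 12 BRP columns it was 0.41 to 0.43 for Gpc4, 0.68, 0.41 and 0.57 for Gpc6, and 0.53, 0.85 and 0.18 for Gpc1, in the same order of genes. Cells share their block, library kit and depth, so all of these describe the table and carry no p-value.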

How the data were processed

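RNA of 28 single cells was described from exonic and intronic count tables. The deposited values are raw read counts (whole numbers, not normalized) for every gene in every cell. Per the labels' processing notes, bcl2fastq 2.17, STAR 2.4.0 and mm10 were used, and the counting tool, annotation, strand setting and filters are not given in the sources used here. None of the 28 column codes was matched to a sample (0 of 28), so the columns were treated as pooled and no test between cells or blocks was made.

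The members and lists were chosen with earlier results of these data known. The 6 members were all named. Within each list, the 3 genes with the highest mean exonic CPM were named. For genes of like profile, the 3 with the highest Spearman's rho were named. Lengths came from merged exons and introns of GENCODE M21 (GRCm38), matched by symbol for 93.0% of genes in each table. That annotation may differ from the one the authors counted on. The share and rank correlation steps were tested on simulated data, and the percentile step was not. No pair of columns was a repeat of the same library, since chi-square divided by its degrees of freedom was at least 17.6 in all 378 pairs.

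Python 3.11.15, pandas 2.3.3, numpy 2.4.6, edgeR 4.0.16 (effective library sizes) and DESeq2 1.42.0 (size factors) were used, the last 2 only as alternative scalings. Coordinates are 1-based.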

Additional observations from a re-analysis of the deposited data

Results flagged for a closer look

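In the 2 blocks of 8 columns, the highest and the lowest cell of each member was compared with the rest by Dixon's gap over range for 24 exonic and intronic levels. The limit used is meant to flag about 1 in 20 by chance in values with a normal spread. These levels are skewed and hold many zeros, and a single count beside 7 zeros passes by construction, as in 2 of the 6 values listed. The number listed is therefore not set against chance, and the blocks are not groups of the labels.

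In the F columns, Gpc1 stood at 253 exonic CPM in F7 beside at most 0.361 in the other 7. Gpc4 stood at 298 intronic CPM in F7 beside at most 7.92. Gpc2 stood at 0.0951 intronic CPM in F7, from 1 count, beside 0. Gpc3 stood at 108 intronic CPM in F1 beside at most 16.8, from 90 counts in the cell with the lowest intronic total. Gpc5 stood at 746 intronic CPM in F16 beside at most 117. In BRP564 and BRP566 to BRP572, Gpc5 stood at 0.0505 exonic CPM in BRP570, from 1 count, beside 0. F7 is the column in which Slc1a2 and Olig1 gave high astrocyte and oligodendrocyte marker sums, and F16 the one in which Csf1r gave a high microglia sum. The part of these in the levels was not tested.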

How the results depend on the processing

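Values carry no test, so a value was taken as changed when it moved by more than 1.5 times. Of 60 values recomputed under other settings, 50 stayed within that range. These include the median exonic levels of Gpc2, Gpc3 and Gpc5, which were 0 and could not move under another scaling. At 5 counts or more, Gpc1 and Gpc2 had 0 cells with intronic counts. Thinning to 831965 intronic counts per cell left Gpc1 in 2 cells and Gpc2 in 0, and thinning to 838343 exonic counts left Gpc2 in 5 cells. The median exonic level of Gpc1 was 17.1 CPM and became 10.4 with DESeq2 size factors. The median intronic share over cells with at least 10 counts was 0% for Gpc1 and 0% for Gpc2. Exon length of the longest transcript raised Gpc5 to 0.311 and Gpc6 to 8.94 CPM per kb, which put Gpc6 above Gpc1. Each cell was left out in turn for the pooled exonic level per kb, intronic level per kb and intronic share, and among these only values of Gpc2 and Gpc5 moved. The exonic level per kb of Gpc2 ranged from 0.339 (without BRP569) to 0.555 and that of Gpc5 from 0.0371 (without BRP543) to 0.206. For Gpc2 the intronic share ranged from 0.0990% to 0.298% and the intronic level per kb from 0.00170 to 0.00975, each on 2 counts. Chosen after seeing the data, leaving out F7 changed the highest F level of Gpc1 to 0.361 CPM, that of Gpc4 over introns from 298 to 7.92 CPM, and the F cells with Gpc2 intronic counts from 1 to 0, and leaving out BRP543 gave exon to intron ratios for Gpc5 of 1.40 over all cells and 1.92 in the other BRP columns. No paired analysis was possible because the columns carry no replicate number of the labels. A single count decided detection over exons in 3 cells for Gpc2, 2 each for Gpc5 and Gpc6 and 1 for Gpc3, and over introns in 5 cells for Gpc1, 2 for Gpc2 and 1 for Gpc4.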
